A study of Mus musculus with 20 samples.

Results

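The genes described here are the mouse clade B serpins, the kallikreins and the Tmprss11 proteases. They were taken by a rule on symbols: every gene in the deposited table whose symbol begins with Serpinb or Klk and a digit, or with Tmprss11, which gave 62 of 38355 genes. Of these, 28 were Serpinb, 27 were Klk and 7 were Tmprss11 genes. At least 1 read was counted for 48 of the 62 genes and no read for 14. Levels are given in CPM, counts per M reads of a library after scaling (TMM) across all libraries, and 27 of the 62 genes reached at least 0.5 CPM in at least 2 of the 20 libraries and were tested. These were 15 Serpinb, 6 Klk (Klk8, Klk10, Klk11, Klk13, Klk14 and Klk1b22) and 6 Tmprss11 genes. Just inside this limit, Klk1b22 reached at most 1.20 CPM in any library, and just outside it Klk12 reached at most 0.632 CPM.

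The study measured polyadenylated RNA in primary mouse tracheal epithelial cells that differentiate on a porous membrane with air above and medium below, the air-liquid interface (ALI). The cultures came from mice labelled p73 knock-out, a global knockout per the study's design text, and from wild-type mice, and were harvested at days 0, 4, 7 and 14 after the switch to ALI, with no other treatment named. Each day has 2 labelled-knockout and 3 wild-type libraries, where the design text speaks of 3 independent biological replicates; the labels do not give the deleted part of the gene, the animals' age or whether animals were pooled. In both genotypes the day 4 library numbered 1 has a title that gives day 3, and it was treated as day 4 after its remaining labels.

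Clade B serpins are inhibitors that act mostly inside the cell and trap a target protease in a covalent complex, although some members inhibit no protease. Kallikreins are secreted serine proteases that, in skin, cut the desmosomal proteins holding surface cells together and are held in check by the inhibitor encoded by Spink5. The Tmprss11 genes encode serine proteases anchored in the cell membrane, among them the airway trypsin-like protease Tmprss11d, and several members of the 3 families are known from stratified squamous epithelia such as skin and oesophagus.

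The genes lie in 4 clusters of the mouse genome (GRCm38, GENCODE vM21). The 7 Tmprss11 genes lie at chr5:86231481-86745815, the 27 kallikreins at chr7:43690418-44229618, 12 serpins at chr1:106861173-107610484 and 16 serpins at chr13:32842092-34002794. The 5 Tmprss11 genes with a promoter entry in RefSeq (GRCm38.p6) have their upstream sequence printed here because they share the cluster and were all higher in labelled-knockout cultures at day 0. Each sequence is the stretch upstream of the gene start, 5′ to 3′ on the gene's own minus strand, without bases that GENCODE places inside the gene, and capitals mark matches to the p53 family half-site. Tmprss11bnl is the gene that RefSeq and GENCODE call Tmprss11b.
Tmprss11d, chr5:86373421-86373637: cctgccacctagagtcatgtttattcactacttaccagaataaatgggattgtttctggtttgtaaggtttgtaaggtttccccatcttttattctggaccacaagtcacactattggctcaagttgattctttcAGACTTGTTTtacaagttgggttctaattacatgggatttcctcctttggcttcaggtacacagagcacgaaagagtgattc
Tmprss11a, chr5:86468991-86469240: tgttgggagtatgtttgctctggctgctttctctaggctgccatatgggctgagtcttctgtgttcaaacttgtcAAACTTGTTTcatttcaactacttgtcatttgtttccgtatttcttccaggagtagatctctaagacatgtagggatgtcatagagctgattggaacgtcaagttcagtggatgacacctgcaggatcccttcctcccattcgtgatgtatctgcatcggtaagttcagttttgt
Tmprss11g, chr5:86518601-86518850: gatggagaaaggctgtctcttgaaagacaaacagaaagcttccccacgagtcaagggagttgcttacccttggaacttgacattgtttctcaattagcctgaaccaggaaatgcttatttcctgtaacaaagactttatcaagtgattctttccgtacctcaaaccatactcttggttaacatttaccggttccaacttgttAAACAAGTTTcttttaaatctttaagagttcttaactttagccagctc
Tmprss11f, chr5:86632425-86632674: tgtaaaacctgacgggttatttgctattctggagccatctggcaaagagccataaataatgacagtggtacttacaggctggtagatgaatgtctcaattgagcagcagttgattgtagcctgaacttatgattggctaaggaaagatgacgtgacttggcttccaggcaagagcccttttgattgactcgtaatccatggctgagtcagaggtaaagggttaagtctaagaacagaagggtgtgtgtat
Tmprss11bnl, chr5:86676363-86676548: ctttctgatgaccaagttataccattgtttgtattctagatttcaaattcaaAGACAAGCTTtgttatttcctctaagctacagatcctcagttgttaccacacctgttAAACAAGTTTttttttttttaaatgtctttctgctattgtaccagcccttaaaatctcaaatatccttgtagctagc
In windows of 250 bases before the RefSeq start, searched on both strands, 4 of these 5 promoters held the half-site, against 7.13% of 32851 mouse promoters. The letters AACNNGTT, which overlap the half-site in Tmprss11a, Tmprss11g and Tmprss11bnl, were in 3 of 5 promoters against 3.64% of all, and TGANTCA was in 2 of 5 against 6.75%. The TGANTCA of Tmprss11d runs past the end of its printed sequence, into bases that GENCODE places inside the gene. Among the other tested members with a promoter entry, the half-site was in 2 of 6 Klk and 0 of 14 Serpinb promoters, and TGANTCA in 0 of 6 Klk and 7 of 14 Serpinb promoters. The motifs were chosen with the sequences in view, and a match is a description of letters, not of a bound site.

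The shallowest library (wild type, day 4, replicate 3) held 3.27 M recovered reads and the deepest (labelled knockout, day 0, replicate 1) held 31.5 M. Trp73, the gene that encodes p73, was lower in labelled knockout on none of the 4 days by the test. At day 0 it had 49.1 and 48.7 CPM in labelled knockout, against 2.70, 2.21 and 1.07 CPM in wild type, and at day 14 it had 30.5 and 16.7 CPM against 23.3, 26.97 and 27.3 CPM in wild type. A value summed over the whole gene cannot show a deletion of part of it, so the genotypes are given as labelled. The basal cell markers Krt5, Krt14 and Krt15 and the secretory marker Cyp2f2 had reads in every library. By day 14, 7 of 8 multiciliated markers rose in labelled knockout (14.5% of all tested genes) and 8 of 8 in wild type (21.7%). In labelled knockout the 6 tested Tmprss11 genes were higher in replicate 2 than in replicate 1 in 6, 6, 6 and 4 cases at days 0, 4, 7 and 14, so values without single libraries are given.

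At day 0 all 6 tested Tmprss11 genes were higher in labelled knockout, and no other family had as large a median difference between the genotypes. Of the 27 tested members, 7 were called higher, where 1.81% of all 15738 tested genes were, and 1 was called lower, where 0.413% were. The share of members called higher was above that of all genes, as a description only. The members were chosen with earlier results of these data known. Of the 7 calls, 6 were of the Tmprss11 cluster, whose genes moved together over the libraries (median pairwise correlation 0.88). Calls are those with an adjusted p under 0.05 in limma. Counted by library, both labelled-knockout values lay above all wild-type values for 12 members (12.7% of all tested genes) and below them for 1 (8.66%), the second share being no larger than the background. Besides the 6 Tmprss11 genes the calls were Serpinb2, higher, and Klk14, lower. Among the 6, Tmprss11f was tested only because of its labelled-knockout libraries, so its direction was fixed by the limit on low values. It is counted in the totals and medians given here and for the later days. The median log2 difference was 3.12 for Tmprss11, 0.38 for Serpinb and -0.72 for Klk, against 0.02 for all tested genes, on a log2(CPM + 0.5) scale that understates the changes of genes with low levels. In bulk RNA, more cells of a type and more RNA per cell cannot be told apart.

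Tmprss11e, known in human as DESC1 after its differential expression in squamous cell carcinoma, had 50.01 and 133 CPM in labelled knockout at day 0, against 0.949, 9.66 and 2.67 CPM in wild type. Both labelled-knockout libraries lay above every wild-type library, and the log2 difference was 4.51 ± 0.70 (SE, adjusted p = 0.00158). Tmprss11bnl had 209 and 465 CPM in labelled knockout, against 19.3, 54.0 and 5.26 CPM in wild type, a log2 difference of 4.09 ± 0.69 (adjusted p = 0.0032). Per kilobase of merged exons its mean level was 80.9 CPM in labelled knockout and 6.27 CPM in wild type. Tmprss11g had 197 and 282 CPM in labelled knockout, against 48.0, 38.4 and 10.3 CPM in wild type, a log2 difference of 3.11 ± 0.59 (adjusted p = 0.00806), with mean levels per kilobase of 47.7 CPM in labelled knockout and 6.42 CPM in wild type. In all 3 genes the libraries of the genotypes did not overlap, and the ratio of highest to lowest was larger within wild type than within labelled knockout.

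Tmprss11d, the airway trypsin-like protease, had 23.7 and 53.3 CPM in labelled knockout, against 5.84, 5.31 and 2.59 CPM in wild type, a log2 difference of 2.90 ± 0.69 (adjusted p = 0.0345). Tmprss11a was between 4.30 and 55.6 CPM in labelled knockout and between 0.616 and 2.97 CPM in wild type, a log2 difference of 3.12 ± 0.76 (adjusted p = 0.0383). The high value is that of replicate 2, and without that library the log2 difference of Tmprss11a was 1.35 (adjusted p = 0.35). Tmprss11f had few reads, with 292 reads summed over the labelled-knockout libraries and 4 over the wild-type libraries, which makes a ratio of scaled rates of 70.0 with a 95% counting interval of 27.04 to 259. It passed the limit on low values through labelled-knockout libraries alone, and its fitted log2 difference of 3.04 ± 0.48 (adjusted p = 0.00201) depends on the 0.5 CPM added. The seventh gene of the cluster, Tmprss11c, had 1 read in all 20 libraries together.

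Tmprss11e, Tmprss11f and Tmprss11bnl were called at day 0 with any 1 library left out, at log2 differences of 3.81 to 5.26, 1.97 to 4.11 and 3.25 to 4.87. Without labelled-knockout replicate 2 the adjusted p was 0.0582 for Tmprss11g, 0.0531 for Serpinb2 and 0.176 for Tmprss11d. Tmprss11d also lost its call without labelled-knockout replicate 1 (0.0613), wild-type replicate 2 (0.0598) or wild-type replicate 3 (0.14), and Tmprss11a without wild-type replicate 1 (0.0714) or 3 (0.155). With a variance estimated from the 5 day 0 libraries alone, 0 members were called.

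**Figure D1:**
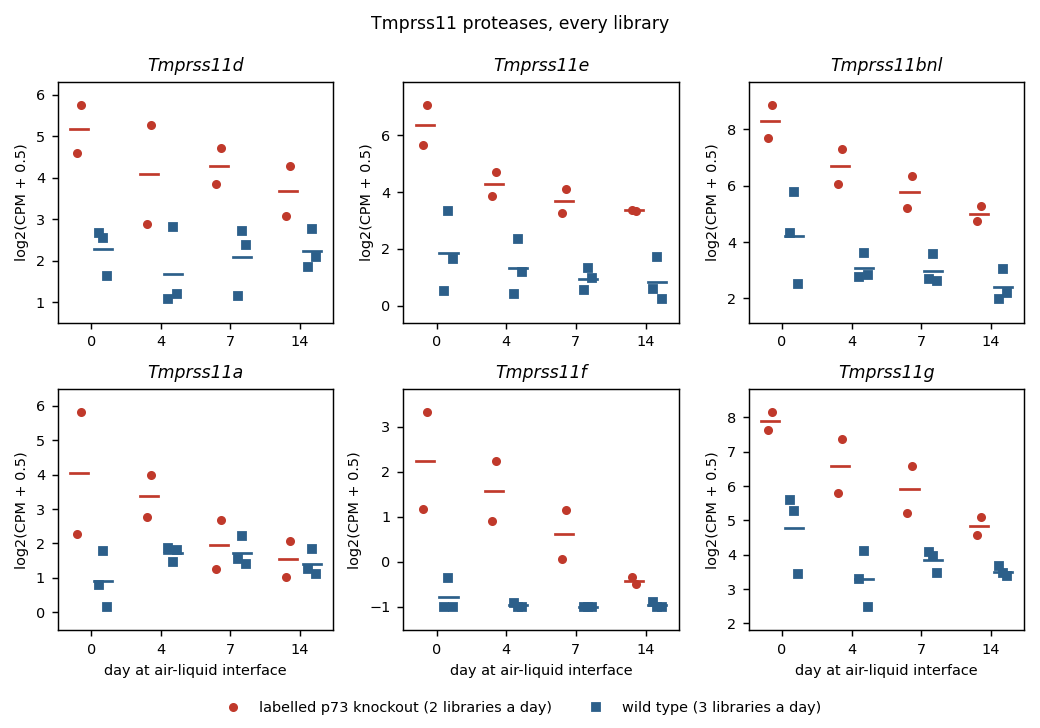
Levels of the 6 tested Tmprss11 genes in every library, as log2(CPM + 0.5) against the day at ALI. Circles are the 2 labelled-knockout libraries and squares the 3 wild-type libraries of each day, bars are means, and both labelled-knockout libraries of all 6 genes lie above the wild-type libraries at days 0 and 4.

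The median difference of the Tmprss11 genes was smaller at each later day. The median log2 difference of the 6 genes was 2.76 at day 4, 2.13 at day 7 and 1.39 at day 14, against 0.02, -0.02 and -0.01 for all tested genes. Of these steps, the one between days 0 and 14 was tested, gene by gene, as the change over time between genotypes. Both labelled-knockout libraries lay above every wild-type library for 6 of 6 genes at days 0 and 4 and for 5 of 6 at days 7 and 14, where 12.7%, 13.1%, 11.5% and 11% of all tested genes did so in that direction. Tmprss11a was the gene that overlapped on the later days, with 1.54 and 3.71 CPM in labelled knockout and 1.67 to 3.11 CPM in wild type at day 14. The other 5 genes still lay above the wild-type range at day 14. These counts and medians include Tmprss11f, which was tested only because of its labelled-knockout libraries. Tmprss11g then had 23.4 and 33.6 CPM in labelled knockout, against 12.1, 10.5 and 9.82 CPM in wild type (adjusted p = 0.342), and Tmprss11d 7.93 and 18.9 CPM against 3.09, 6.29 and 3.74 CPM in wild type (adjusted p = 0.406).

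At day 4, 5 of the 27 members were called higher (0.909% of all tested genes) and 0 lower (0.235%), with 11 at an unadjusted p under 0.05, by limma; edgeR called 3 in all. Libraries did not overlap for 9 higher members (13.1% of all tested genes) and 2 lower ones (9.21%). Tmprss11g had 54.6 and 164 CPM in labelled knockout, against 9.28, 16.7 and 5.09 CPM in wild type, a log2 difference of 3.28 ± 0.59 (adjusted p = 0.00778). Tmprss11bnl had 65.9 and 160 CPM in labelled knockout, against 6.27, 11.7 and 6.58 CPM in wild type, a log2 difference of 3.62 ± 0.69 (adjusted p = 0.0107). For both genes replicate 2 stood well above replicate 1 in labelled knockout, and the genotypes did not overlap. Tmprss11e had 14.0 and 25.9 CPM in labelled knockout, against 0.850, 4.57 and 1.80 CPM in wild type, a log2 difference of 2.97 ± 0.70 (adjusted p = 0.0492, and 0.105 in edgeR). Tmprss11f, with 150 reads in labelled knockout and 1 in wild type, had a ratio of 148 with a 95% counting interval of 26.2 to 5892 and was called (adjusted p = 0.0106). Tmprss11d, at 6.85 and 38.4 CPM in labelled knockout and 1.60, 6.50 and 1.80 CPM in wild type, was not called (adjusted p = 0.146) but was with the replicate number as a block (0.0122).

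Without labelled-knockout replicate 2, 0 members were called at day 4, at adjusted p of 0.29 for Tmprss11g, 0.376 for Tmprss11f, 0.317 for Tmprss11bnl, 0.584 for Tmprss11e and 0.54 for Serpinb2. Without wild-type replicate 3, the shallowest library, Tmprss11f alone kept its call. Without labelled-knockout replicate 1 Tmprss11e (0.0939) and Serpinb2 (0.0602) lost theirs, and without wild-type replicate 1 Tmprss11e (0.107) and Serpinb2 (0.0713) did. Lyz2, listed here as a leukocyte marker and also made by epithelium, averaged 4034 ± 4479 CPM in labelled knockout and 912 ± 259 CPM in wild type at day 4 (SD, n = 2 and 3), while the leukocyte markers Ptprc and Cd3e stayed at or below 0.467 and 0.328 CPM in every library. The 12 leukocyte markers, mainly Lyz2, summed to 886 and 7253 CPM in labelled knockout at day 4, against 642, 1159 and 941 CPM in wild type. Labelled-knockout replicate 2, without which the day 4 calls were lost, stood far above the other libraries also at day 7, with 989 and 4876 CPM in labelled knockout and 499 to 1036 CPM in wild type, and at day 14, with 867 and 2753 CPM in labelled knockout and 672 to 813 CPM in wild type. Of the 12 markers 4 were tested, and Itgam, an integrin chain of myeloid cells, was higher in labelled knockout at day 4 (log2 3.96, adjusted p = 0.000712) and day 7 (3.60, adjusted p = 0.00224). S100a8, S100a9 and Lyz2 were not called on these days. Itgam averaged 39.5 CPM in labelled knockout and 14.6 CPM in wild type at day 0, and 31.7 and 1.45 CPM at day 4. Other myeloid markers, Tyrobp, Emr1, Fcer1g and Mpo, reached at most 0.236, 0.236, 0.309 and 0.117 CPM in any library. The part of these differences in the results for the 27 members was not tested.

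At day 7, 0 of the 27 members were called in limma, where 0.794% of all tested genes were called higher and 0.769% lower. At an unadjusted p under 0.05 there were 9, of which 5 were Tmprss11 genes, and libraries did not overlap for 10 higher members (11.5% of all tested genes) and 3 lower ones (13.4%). Tmprss11bnl had 36.7 and 80.9 CPM in labelled knockout, against 5.98, 11.5 and 5.59 CPM in wild type, and missed the threshold at an adjusted p of 0.0506. Tmprss11e had 9.09 and 16.9 CPM in labelled knockout, against 0.960, 2.01 and 1.46 CPM in wild type (adjusted p = 0.0607). In both genes the labelled-knockout libraries stood clear of wild type. The same was seen in Tmprss11g, with 36.9 and 94.9 CPM in labelled knockout against 16.5, 15.1 and 10.5 CPM in wild type (adjusted p = 0.108), and in Tmprss11d, with 13.9 and 25.7 CPM against 1.74, 6.08 and 4.72 CPM in wild type (adjusted p = 0.158). With the replicate block 3 members were called, namely Tmprss11bnl (0.00414), Tmprss11e (0.00564) and Tmprss11d (0.0208), and edgeR and DESeq2 called 2 and 5. Tmprss11f had 59 reads in labelled knockout and none among 65.1 M reads of wild type, where 3 reads would be 0.0444 CPM. Its summed labelled-knockout rate of 1.17 CPM was 26.4-fold this floor. That ratio leaves out the counting error of labelled knockout and the spread between libraries, so it is no bound on the genotype difference.

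At day 14, 1 member was called higher (0.407% of all tested genes) and 1 lower (3.74%), the lower count being near its background. Libraries did not overlap for 7 higher members (11%) and 3 lower ones (17.4%). The higher one was Tmprss11bnl, with 26.3 and 38.0 CPM in labelled knockout, against 3.39, 7.71 and 4.07 CPM in wild type, a log2 difference of 2.61 ± 0.69 (adjusted p = 0.0403). Its libraries did not overlap, but the call was lost in edgeR (0.0534) and without any 1 of the 5 libraries of that day (0.058 to 0.315). Tmprss11e had 9.96 and 9.53 CPM in labelled knockout, against 1.02, 2.79 and 0.668 CPM in wild type (adjusted p = 0.0533, and 0.00576 with the replicate block). Tmprss11f had 11 reads in labelled knockout and 1 in wild type, a ratio of 16.9 with a 95% counting interval of 2.46 to 728. The authors' deposited table, made within each day, gave adjusted p under 0.05 to 4 higher members at day 0, 6 at day 4, 7 at day 7 and 5 at day 14, and Tmprss11e and Tmprss11g were among them on all 4 days. The authors' deposited table gave such a p to 0, 1, 2 and 2 lower members on these days, namely Serpinb9b at day 4, Serpinb12 at day 7, Klk11 at day 14, and Serpinb1b at days 7 and 14.

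**Figure D2:**
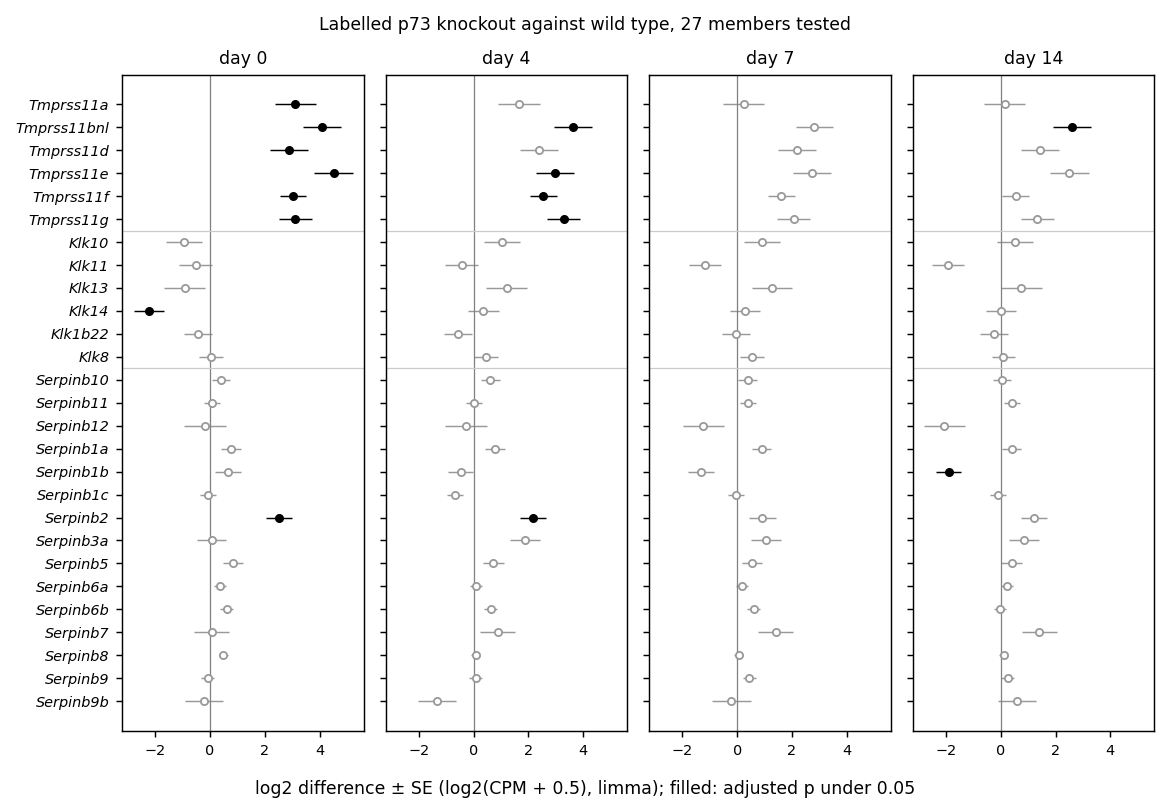
Log2 difference of labelled knockout minus wild type, with its SE, for the 27 tested members at each day. Filled points are called in limma; they are 8 at day 0, 5 at day 4, 0 at day 7 and 2 at day 14, and the Tmprss11 genes at the top lie to the right of 0 on every day.

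Among the 6 tested kallikreins, 0 were called higher in labelled knockout on any day in limma, and 1 was called lower, at day 0. Klk14, a trypsin-like kallikrein that acts in skin shedding, had 4.20 and 22.3 CPM in labelled knockout at day 0, against 83.2, 39.4 and 33.9 CPM in wild type. Both labelled-knockout libraries lay below all 3 wild-type libraries, and the log2 difference was -2.23 ± 0.56 (adjusted p = 0.0451). Without labelled-knockout replicate 1 it was -1.09 (adjusted p = 0.558), and the call was also lost without wild-type replicate 1 (0.107), 2 (0.0653) or 3 (0.0662), and in edgeR (0.12).

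Klk10, the kallikrein with the most CPM per kilobase of merged exons at day 0, had 206 and 189 CPM in labelled knockout, against 977, 287 and 202 CPM in wild type. Klk13 had 48.2 and 132 CPM in labelled knockout, against 315, 107 and 103 CPM in wild type. In both genes the groups overlapped and wild-type replicate 1 was the highest library, and neither was called (adjusted p = 0.662 and 0.741). Klk8, known as neuropsin, lay between 14.3 and 19.7 CPM in labelled knockout and 13.3 and 23.4 CPM in wild type at day 0, with overlap. Klk11 lay between 2.16 and 5.92 CPM in labelled knockout and 13.3 and 20.5 CPM in wild type at day 14, without overlap and without a call (adjusted p = 0.0813), while the authors' deposited table gave it a log2 fold change of -1.75 with an adjusted p of 0.000236. At the days between, labelled-knockout replicate 2 stood apart. Klk10 had 65.7 and 387 CPM in labelled knockout at day 4, against 104, 77.0 and 58.6 CPM in wild type, and 29.9 and 87.3 CPM at day 7, against 37.5, 25.7 and 20.7 CPM in wild type. Klk13 had 34.5 and 173 CPM in labelled knockout at day 4, against 58.4, 21.8 and 28.4 CPM in wild type, and 17.1 and 42.9 CPM at day 7, against 19.5, 11.96 and 5.59 CPM in wild type. In each case replicate 2 was the highest of the 5 libraries and replicate 1 lay within the wild-type range, and adjusted p was 0.738 or more. Klk14 had 3.04 and 7.77 CPM in labelled knockout at day 4, against 5.23, 4.04 and 2.39 CPM in wild type, so that the day 0 order was not seen at day 4 (adjusted p = 0.982). Klk1b22, a kallikrein of the glandular subgroup, was called in 0 of the 7 comparisons at 1.20 CPM or less, and shares 88.7% of aligned bases with Klk1b21. Klk5 and Klk7, kallikreins known for their part in skin shedding, had 0 and 3 reads in all 20 libraries together.

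**Figure D3:**
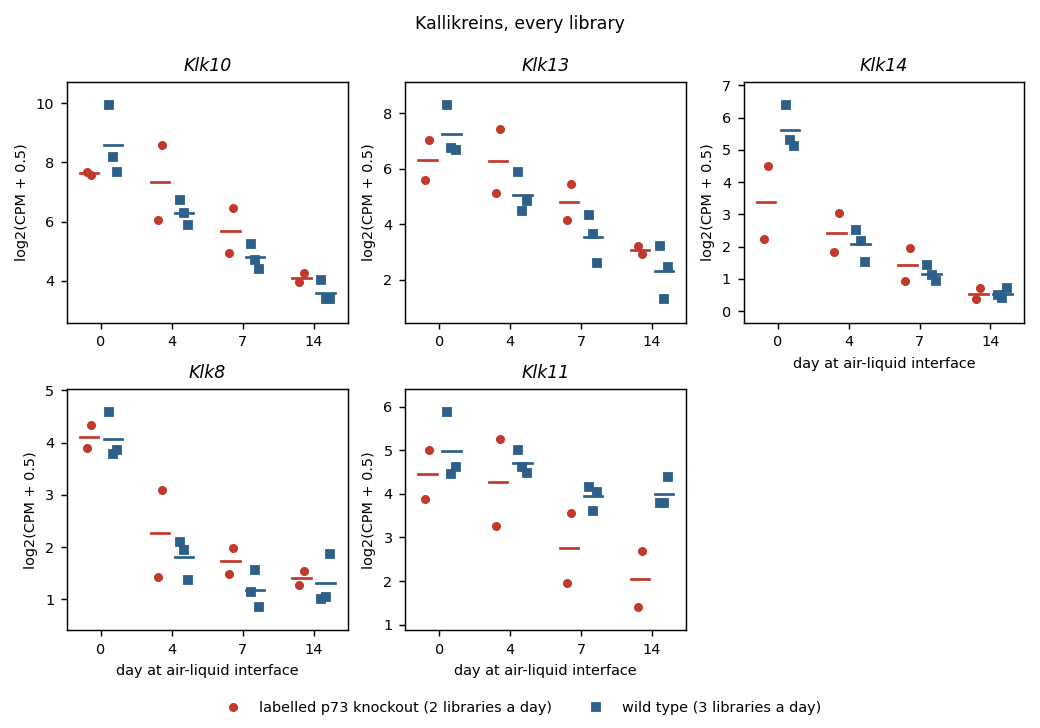
Levels of the 5 kallikreins called in at least 1 comparison, in every library, as log2(CPM + 0.5) against the day at ALI. Circles are labelled-knockout and squares wild-type libraries, bars are means, and Klk10, Klk13, Klk14 and Klk8 descend from day 0 to day 14 in both genotypes.

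Of the 15 tested serpins, 1 differed between genotypes at days 0 and 4 and another at day 14. Serpinb2, which encodes plasminogen activator inhibitor 2, had 66.8 and 78.7 CPM in labelled knockout at day 0, against 13.1, 16.01 and 8.83 CPM in wild type, a log2 difference of 2.51 ± 0.49 (adjusted p = 0.0088). At day 4 it had 17.9 and 30.4 CPM in labelled knockout, against 3.73, 8.81 and 3.29 CPM in wild type, a log2 difference of 2.17 ± 0.49 (adjusted p = 0.0353). The groups stood apart on both days, and also at day 7, with 10.3 and 17.4 CPM in labelled knockout against 5.94, 9.25 and 5.79 CPM in wild type (adjusted p = 0.635). At day 14, with 6.43 and 26.1 CPM in labelled knockout against 6.53, 5.86 and 3.94 CPM in wild type, they overlapped (adjusted p = 0.249). The day 4 call was lost without labelled-knockout replicate 1 (0.0602) or wild-type replicate 3 (0.19) too, and in edgeR (0.0643). Serpinb2 overlaps Serpinb10 on the same strand of chromosome 1, and the counting rule for shared reads is not given in the sources used here; Serpinb10 itself reached at most 9.15 CPM in any library.

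Serpinb1b, a mouse homologue of the neutrophil elastase inhibitor SERPINB1, was the 1 member called lower at day 14. It lay between 1.16 and 1.34 CPM in labelled knockout and between 2.49 and 10.02 CPM in wild type, a log2 difference of -1.90 ± 0.46 (adjusted p = 0.0257). It kept this call without wild-type replicate 1 and lost it without labelled-knockout replicate 1 (0.146) or 2 (0.148) or wild-type replicate 2 (0.117) or 3 (0.135). Its closest member, Serpinb1a, shares 89.0% of bases over 1316 aligned transcript bases, so reads between the copies are uncertain. Serpinb1a, the more abundant copy, was not called at any day, with 247 and 185 CPM in labelled knockout and 153, 113 and 113 CPM in wild type at day 0 (adjusted p = 0.393).

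None of the remaining 13 tested serpins passed the limma test between genotypes. Serpinb11 was the most abundant member per kilobase of merged exons at day 14, with 453 CPM per kb in labelled knockout and 339 in wild type, and was not called (adjusted p = 0.976 at day 0 and 0.72 at day 14). Serpinb5, or maspin, a serpin that inhibits no protease, had 274 and 103 CPM in labelled knockout and 135, 99.5 and 60.5 CPM in wild type at day 0 (adjusted p = 0.357). Serpinb3a, a mouse homologue of the human squamous cell carcinoma antigens, lay between 3.17 and 7.50 CPM in labelled knockout and between 0.299 and 2.07 CPM in wild type at day 4, and passed the test only with the replicate block (adjusted p = 0.0359, against 0.146 without it). Its copy Serpinb3b, which shares 92.8% of aligned bases, is another place its reads could have gone. Serpinb9b had 6.51 and 8.16 CPM in labelled knockout at day 4, against 29.9, 16.8 and 13.8 CPM in wild type, without overlap and without a call (adjusted p = 0.72). Serpinb5, Serpinb7, Serpinb10, Serpinb1a, Serpinb1c and Serpinb6a were called in 0 of the 7 comparisons in limma; Serpinb6a ranged over the 20 libraries between 195 and 410 CPM, and Serpinb1c between 0.233 and 1.496 CPM.

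**Figure D4:**
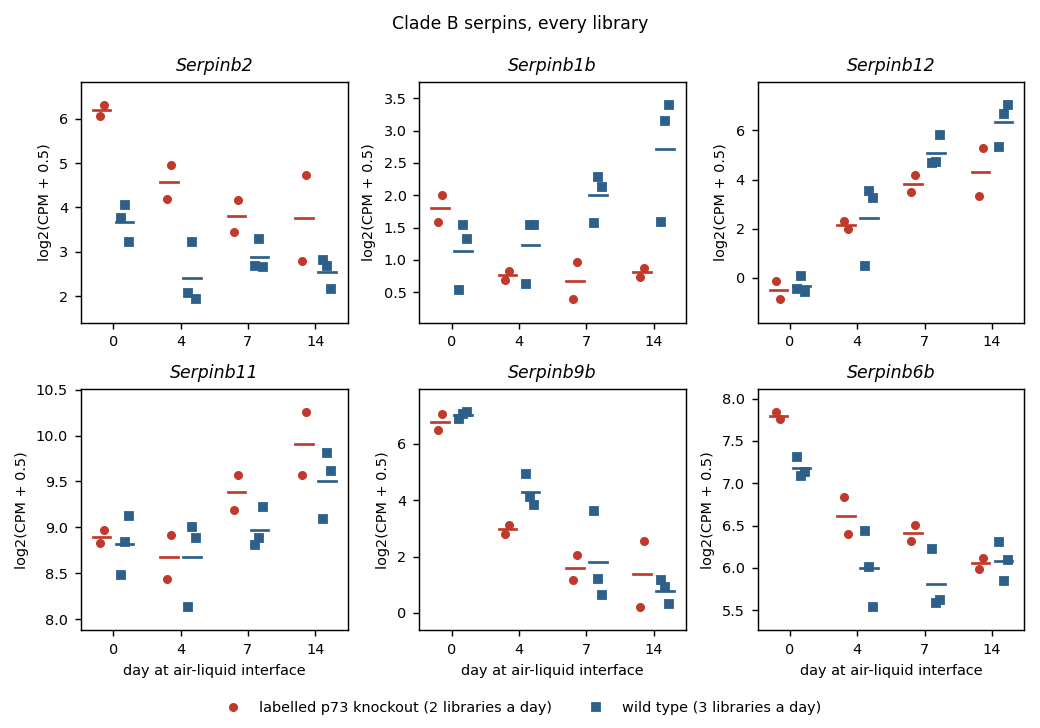
Levels of 6 clade B serpins in every library, as log2(CPM + 0.5) against the day at ALI. Circles are labelled-knockout and squares wild-type libraries and bars are means; Serpinb12 climbs and Serpinb9b descends over the days in both genotypes, while Serpinb2 lies higher in labelled knockout at days 0 and 4.

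Over the 14 days most tested kallikreins fell in both genotypes and 2 serpins rose in both. Of the 6 Tmprss11 genes, 5 were called lower at day 14 in labelled knockout and 1 in wild type, where 5 had a change below 0. The test of the difference between the changes of the 2 genotypes called 0 of the 6 in limma. In labelled knockout, 2 of the 27 members were called higher at day 14 than at day 0 (14.5% of all tested genes) and 14 lower (17.6%). In wild type, 3 were called higher (21.7%) and 10 lower (18.7%). Libraries of the 2 days did not overlap for 3 higher members (28.7%) and 19 lower ones (30.8%) in labelled knockout, and for 2 higher (26.6%) and 12 lower ones (24.2%) in wild type. In both genotypes the share of members lower at day 14 was above that of all genes and the share of members higher was below it. This too is a description of members chosen with earlier results known. Of these calls, 10 were shared, 10 of 16 in labelled knockout and 10 of 13 in wild type, and all 10 had the same direction. The medians over time were -2.77 for Klk, -2.84 for Tmprss11 and -0.57 for Serpinb in labelled knockout, and -3.85, -0.59 and -0.28 in wild type, against -0.01 and 0.00 for all tested genes.

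Among the kallikreins, 5 of 6 fell in labelled knockout and 4 of 6 in wild type. Klk14 had 0.788 and 1.13 CPM at day 14 in labelled knockout, against the 4.20 and 22.3 CPM of day 0, and fell by 2.84 ± 0.61 on the log2 scale (adjusted p = 0.00182). In wild type it had 0.905, 0.826 and 1.14 CPM at day 14, against 83.2, 39.4 and 33.9 CPM at day 0, and fell by 5.07 ± 0.50 (adjusted p = 4.14e-07). Labelled-knockout cultures were lower at day 0, and at day 14 the genotypes overlapped. Klk10 had 14.9 and 18.9 CPM at day 14 in labelled knockout and 15.6, 9.87 and 9.82 CPM in wild type, against the day 0 values given with its genotype comparison, log2 changes of -3.52 (adjusted p = 0.00119) and -5.00 (adjusted p = 3.08e-06). Klk13 had 8.71 and 7.16 CPM at day 14 in labelled knockout and 8.79, 1.93 and 5.01 CPM in wild type, changes of -3.26 (0.00546) and -4.93 (1.46e-05). Klk8 ended between 1.91 and 2.42 CPM in labelled knockout and 1.51 and 3.14 CPM in wild type, with changes of -2.71 and -2.77. Klk11 fell in labelled knockout (-2.40, adjusted p = 0.00853) and was not called in wild type (-0.99, adjusted p = 0.147); the difference between these changes was not called (adjusted p = 0.684). Without labelled-knockout day 0 replicate 2, Klk11 (0.0986) and Klk13 (0.0728) lost their calls in labelled knockout, as Klk11 did without day 14 replicate 1 (0.0966).

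Of the serpins, Serpinb12 rose most. This serpin, whose human counterpart inhibits trypsin-like proteases, had 9.46 and 38.1 CPM at day 14 in labelled knockout, against 0.406 and 0.0396 CPM at day 0. In wild type it had 39.9, 102 and 130 CPM at day 14, against 0.219, 0.552 and 0.164 CPM at day 0. The log2 changes were 4.81 ± 0.83 (adjusted p = 0.000299) and 6.68 ± 0.68 (adjusted p = 6.06e-07). At day 14 every labelled-knockout library lay below every wild-type library, without a call (log2 difference -2.05, adjusted p = 0.192). At the days between, Serpinb12 had 4.39 and 3.50 CPM in labelled knockout at day 4 against 0.882, 11.1 and 8.97 CPM in wild type, and 10.8 and 17.5 CPM at day 7 against 25.2, 25.5 and 56.4 CPM in wild type, a steady climb over the days in group means of both genotypes. Serpinb11, of the same chromosome 1 cluster, had 760 and 1219 CPM at day 14 in labelled knockout against 454 and 501 CPM at day 0, and 543, 897 and 784 CPM in wild type against 356, 459 and 558 CPM. Its changes of 1.01 (adjusted p = 0.0209) and 0.69 (adjusted p = 0.0426) were lost without any 1 of several libraries: in labelled knockout without day 0 replicate 1 (0.0921) or 2 (0.0583) or day 14 replicate 2 (0.218), and in wild type without day 0 replicate 1 (0.151) or 2 (0.0838) or day 14 replicate 2 (0.169) or 3 (0.117).

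Serpinb9b, a mouse relative of the granzyme B inhibitor Serpinb9, fell most. It had 0.664 and 5.36 CPM at day 14 in labelled knockout, against 89.6 and 133 CPM at day 0, and 1.74, 1.38 and 0.735 CPM in wild type, against 116, 132 and 137 CPM. The log2 changes were -5.40 ± 0.77 (adjusted p = 5.03e-05) and -6.22 ± 0.63 (adjusted p = 5.62e-07), and both held with any 1 library left out. Serpinb6b, of the same chromosome 13 cluster, had 63.0 and 69.2 CPM at day 14 in labelled knockout, against 228 and 216 CPM at day 0, and 78.6, 56.8 and 68.1 CPM in wild type, against 158, 136 and 140 CPM. It fell by 1.74 and 1.10 on the log2 scale (adjusted p = 7.48e-05 and 0.000495). The 2 days did not overlap in either gene. Serpinb9 had 64.9 and 91.7 CPM at day 14 in labelled knockout, against 105 and 94.5 CPM at day 0, without a call (adjusted p = 0.314), and 73.7, 57.8 and 62.4 CPM in wild type, against 83.5, 102 and 134 CPM (-0.70, adjusted p = 0.0146). Serpinb8, whose human counterpart inhibits furin, had 46.1 and 43.1 CPM at day 14 in labelled knockout, against 66.6 and 84.1 CPM at day 0 (-0.74, adjusted p = 0.00428), and 43.0, 39.8 and 40.9 CPM in wild type, against 46.1, 53.6 and 60.9 CPM (adjusted p = 0.0561).

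Calls near the threshold turned on single libraries here as well. Serpinb9 lost its wild-type call without day 0 replicate 3 (0.0837) or day 14 replicate 2 (0.0602), and Serpinb8 its call in labelled knockout without day 0 replicate 2 (0.0588). Serpinb2 fell in labelled knockout by 2.43 ± 0.53 (adjusted p = 0.00213). In wild type it fell by 1.14 (adjusted p = 0.0464), which was lost without any 1 of 5 of the 6 libraries (0.0572 to 0.157). Serpinb3a changed by -0.57 in labelled knockout, without a call (adjusted p = 0.502), and fell in wild type by 1.36 (adjusted p = 0.0326); the difference between these changes was not called (adjusted p = 0.902). Its call in wild type was lost without any 1 of 5 of the 6 libraries (0.0562 to 0.139). Serpinb1b was not called in labelled knockout (-0.99, adjusted p = 0.151, but 0.0282 with the replicate block) and rose in wild type by 1.57 ± 0.42 (adjusted p = 0.00589).

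Of the Tmprss11 genes, the 1 not called over time in labelled knockout was Tmprss11d (-1.49, adjusted p = 0.146, but 0.0189 with the replicate block). Tmprss11e fell by 3.00 ± 0.76 (adjusted p = 0.00611) in labelled knockout, against a change of -0.9999 ± 0.62 in wild type (adjusted p = 0.219, but 0.0497 with the replicate block). Without wild-type day 0 replicate 1 the wild-type change was -1.66 (adjusted p = 0.0405). Tmprss11bnl fell in both, by 3.28 (adjusted p = 0.0031) in labelled knockout and by 1.80 (adjusted p = 0.0276) in wild type. Tmprss11g changed by -3.05 in labelled knockout (adjusted p = 0.00174) and by -1.28 in wild type, which passed only with the replicate block (adjusted p = 0.0142, against 0.0661 without it). Without labelled-knockout day 0 replicate 2 the calls of Tmprss11e (0.0809) and Tmprss11a (-0.71, 0.514) were lost, and Tmprss11a's also without day 14 replicate 1 (0.168). The wild-type call of Tmprss11bnl was lost without day 0 replicate 1 (0.0606) or 2 (0.18) or day 14 replicate 1 (0.093) or 3 (0.0781).

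The change from day 0 to day 14 was then compared between the genotypes in 1 test. In limma, 0 members were called, where 0.0191% of all tested genes were called higher and 0.979% lower; 4 members had an unadjusted p under 0.05, edgeR called 0 and DESeq2 called 2. All 6 Tmprss11 genes had a change below that of wild type, at a median of -1.89 against -0.06 for all tested genes. With the replicate block 2 members were called, Serpinb1b (-2.56, adjusted p = 0.00736, against 0.0784 without it) and Tmprss11f (adjusted p = 0.0458, against 0.108 without it). Leaving out labelled-knockout day 0 replicate 1 called Tmprss11a and Tmprss11f, leaving out replicate 2 called Klk14, and leaving out wild-type day 14 replicate 1 called Serpinb1b.

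**Figure D5:**
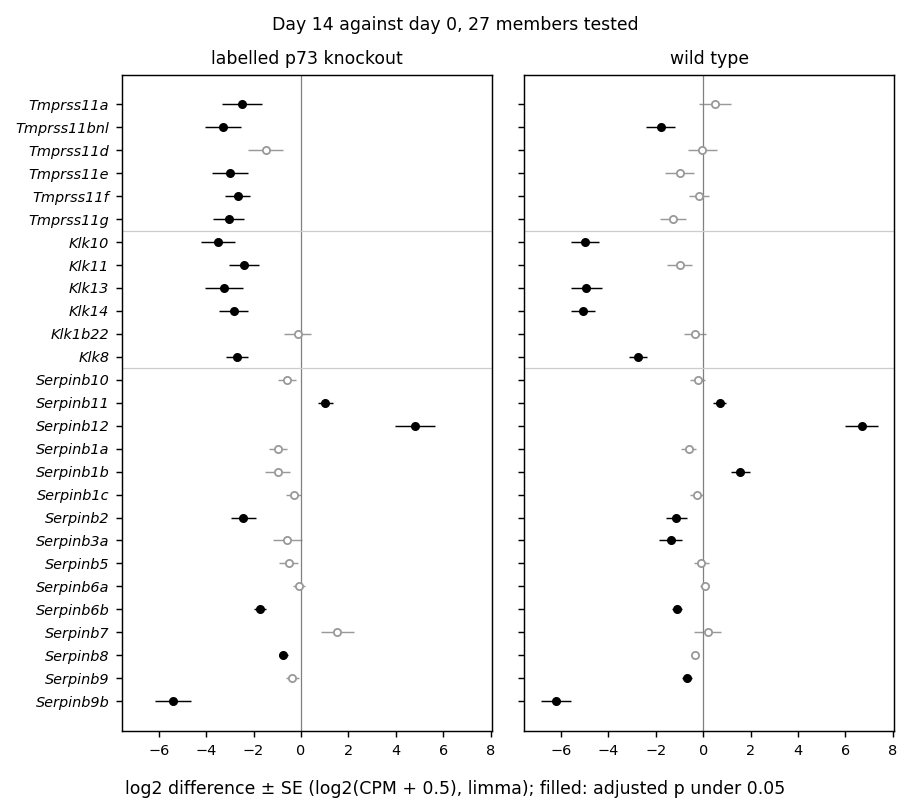
Log2 change of day 14 minus day 0, with its SE, for the 27 tested members in labelled knockout on the left and wild type on the right. Filled points are called in limma, 16 in labelled knockout and 13 in wild type; the kallikreins lie left of 0 in both panels.

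How far the families moved together is also seen across the 20 libraries, as a description, since the libraries share day and genotype. The Pearson correlation of log2(CPM + 0.5) had a median of 0.88 over the 15 pairs of Tmprss11 genes, 0.64 over the 15 pairs of kallikreins and 0.19 over the 105 pairs of serpins. Tmprss11 genes were highest, by group mean, in labelled knockout at day 0 in 6 of 6 cases, among them Tmprss11f, tested through labelled-knockout libraries alone. Of the kallikreins, 4 of 6 were highest in wild type at day 0. Among all tested genes that are not members, the profiles most like that of Tmprss11e over the 20 libraries were those of Il1a (r = 0.949), the cytokine interleukin 1 alpha; Ltb4r2 (0.931), a leukotriene B4 receptor; Dsc3 (0.930), the desmosomal protein desmocollin 3; Aldh1a3 (0.929), a retinaldehyde dehydrogenase; and Csta (0.929), the cysteine protease inhibitor cystatin A. Tmprss11bnl was closer than any of these (0.952), and Serpinb2 stood at 0.883.

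The genes around these families were read from lists chosen for their known roles. Of 15 tested squamous markers, 9 were higher in labelled knockout at day 0 (1.81% of all tested genes), 6 at day 4 (0.909%), 4 at day 7 (0.794%) and 4 at day 14 (0.407%). The largest differences at day 0 were those of Tgm3 (log2 5.70), a transglutaminase, and the keratins Krt13 (5.34), Krt6b (4.59) and Krt6a (4.20). Krt13 averaged 2458 ± 980 CPM in labelled knockout and 82.3 ± 64.2 CPM in wild type at day 0 (SD, n = 2 and 3). On the same list Krt1, Lor, Krt10, Sprr1b and Rptn reached at most 1.80, 2.46, 6.67, 3.04 and 3.34 CPM in any library. Sprr1a reached 936 CPM in its highest library, Tgm3 219 CPM, Tgm1 114 CPM, Sprr3 92.3 CPM, Cnfn 53.3 CPM and Ivl 38.4 CPM. The summed level of the 16 squamous markers was 4950 to 8471 CPM in labelled knockout and 634 to 1311 CPM in wild type at day 0, and 1586 to 1627 CPM in labelled knockout and 357 to 484 CPM in wild type at day 14. At day 4 this sum was 5309 to 7029 CPM in labelled knockout, within its day 0 range, and 454 to 731 CPM in wild type. The median log2 difference between genotypes was 1.95 at day 0 and 1.98 at day 4 for the 15 tested squamous markers. For the Tmprss11 genes it was 3.12 and 2.76. In labelled knockout both the squamous sum and the Tmprss11 genes were lower at day 14 than at day 0. The part of the squamous markers in the Tmprss11 difference was not tested.

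Of 13 tested membrane serine proteases and their inhibitors outside the Tmprss11 cluster, 3 were higher at day 0 (1.81% of all tested genes): Prss27 (log2 3.03), a protease of squamous epithelium also called marapsin, Tmprss3 (1.06) and Prss22 (1.06). Tmprss3 had a low level at day 0, averaging 1.29 CPM in labelled knockout and 0.382 CPM in wild type, where Prss22 averaged 273 and 132 CPM. Prss27 was called on all 4 days, at 4.06, 2.96 and 1.88 on days 4, 7 and 14. Of 15 tested epithelial protease inhibitors outside clade B, 2 were higher at day 0: Spink5 (3.79), the kallikrein inhibitor, and Stfa3 (1.404), a stefin that, like Tmprss11f, passed the limit on low values through labelled-knockout libraries alone. Spink5 averaged 133 ± 46.0 CPM in labelled knockout and 11.4 ± 9.44 CPM in wild type at day 0. Of 7 tested substrates and receptors of these proteases, 2 were higher at day 0, Cdsn (2.09), which encodes corneodesmosin, and Dsg3 (1.47), a desmoglein. The median of the 7 was -0.36. This list summed to 848 to 1098 CPM in labelled knockout and 869 to 1283 CPM in wild type at day 0. Of 10 tested proteases in a list of known or possible serpin targets, Plau, the urokinase, was lower at day 4 (-1.69, adjusted p = 0.0334), and the list's median at day 0 was 0.15.

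Markers of other cells moved too. Of 8 secretory markers, 5 were lower in labelled knockout at day 0 (0.413% of all tested genes), led by Muc5b (-3.05), Bpifb1 (-2.66), Scgb3a2 (-1.79) and Muc5ac (-1.68). Of 10 basal markers, Krt14 (2.79) and Pdpn (0.69) were higher at day 0 (1.81% of all tested genes). The secretory sum was 2110 to 3227 CPM in labelled knockout and 5563 to 9122 CPM in wild type, and the basal sum was 7253 to 10318 CPM in labelled knockout and 3642 to 7568 CPM in wild type. Multiciliated markers summed to 24.4 to 27.7 CPM in labelled knockout and 18.7 to 29.9 CPM in wild type at day 0. Of these 8 markers, 3, Sntn, Dnahc9 and Dnahc5, were lower at day 14 (3.74% of all tested genes). At day 0 fibroblast markers summed to 55.1 to 224 CPM in labelled knockout and 38.8 to 69.1 CPM in wild type, and leukocyte markers to 41.7 to 100 CPM in labelled knockout and 34.7 to 63.0 CPM in wild type. Of 8 gland markers 3 were tested at day 0: Dmbt1 was lower (-2.67, adjusted p = 0.0326), and Ltf (0.42, adjusted p = 0.621) and Aqp5 (0.16, adjusted p = 0.91) were not called. The gland markers summed to 12031 and 14872 CPM in labelled knockout and 9659 to 11138 CPM in wild type at day 0. Their part in the differences of the serpins, kallikreins and Tmprss11 genes was not tested.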

How the data were processed

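Polyadenylated RNA was sequenced in 20 libraries of 8 groups (genotype and day). The authors deposited a normalized signal per gene: dividing each library's values by the smallest step gave whole reads, so they were counts scaled by 1 factor a library, set day by day. Per the submitters' processing notes STAR 2.3.0e, DESeq2 1.4.5 and mm10 were used, with roles not given; no source used here gives the counting or strand rules. The deposited table also holds the authors' log2 fold change and p-value of each day, per the file headers.

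The signal was scaled by TMM across all 20 libraries to CPM. The 15738 genes that reached 0.5 CPM in 2 or more libraries were fitted as log2(CPM + 0.5) in limma 3.58.1 (R 4.3.3; trend, robust; 1 mean per group), with Benjamini-Hochberg adjustment over all tested genes, in 7 comparisons. The method was run on simulated counts with planted changes. These had the same spread setting for every gene and no replicate effect, so they do not show how calls hold in these libraries. The labels do not say whether replicate numbers pair the genotypes. All 8 same-number pairs had correlated departures from their group means (0.267 to 0.604, 11017 genes). With 2 labelled-knockout libraries a day, the departures of 1 mirror those of the other, so the 8 values are not independent. Alternatives were other pseudocounts, filters and scalings, edgeR 4.0.16 and DESeq2 1.42.0 on recovered reads, the replicate block, fits of the compared groups alone, and libraries left out.

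Named genes are members called in at least 1 comparison with a group mean of at least 2 CPM, with each library's value for the 14 highest, Tmprss11e, Trp73, up to 4 called genes of each list, and the 5 genes most like Tmprss11e; further members were named after their values were seen. Members and lists were chosen with earlier results of these data known. Counting intervals cover counting error only, and floors (3 reads over the group) cover that of the wild-type group only. Transcript identity came from blastn 2.17.0.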

Additional observations from a re-analysis of the deposited data

Results flagged for a closer look

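Serpinb1b, 1 of the mouse copies of the neutrophil elastase inhibitor, moved in opposite directions between genotypes on separate days. At day 0 both labelled-knockout libraries (2.51 and 3.52 CPM) lay above every wild-type library (0.949, 2.42 and 2.01 CPM), and at day 7 both (0.807 and 1.46 CPM) lay below (2.47, 4.37 and 3.89 CPM). The log2 difference between genotypes at day 7 minus that at day 0 was -1.98. This difference was itself not tested, and neither day's difference was called (adjusted p = 0.243 at day 7 and 0.676 at day 0).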

How the results depend on the processing

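No called difference changed direction under the alternatives run. The 77 results for single members with an unadjusted p under 0.05 were each refitted under many alternatives, which share libraries. Of these refits 1068 kept their side of the threshold, 53 gained a call and 123 lost one. Of 44 calls, 21 held with any 1 library left out. Members called, against 8, 5, 0 and 2 at days 0, 4, 7 and 14 between genotypes, were as follows, and the cause of each change was not tested. At day 0 they were 0 with the compared groups alone and 3 without the 4 labelled-knockout libraries of number 2. At day 4 they were 3 in edgeR, 3 with no filter, 1 with the compared groups alone and 1 without the number 2 libraries. At day 7 they were 5 in DESeq2, 2 in edgeR, 1 with the filter of 1 CPM in 3 libraries, 5 with the compared groups alone, 1 with a pseudocount of 0.1 CPM and 3 with the replicate block. At day 14 they were 5 in DESeq2, 1 in edgeR, 1 with no filter, 4 with the compared groups alone, 1 with a pseudocount of 2 CPM and 1 without the number 2 libraries. For the change over time between genotypes, against 0, they were 2 in DESeq2, 2 with the replicate block and 1, Serpinb9f with 6 reads in all, with no filter. With any 1 library left out the counts were 5 to 6 at day 0, 0 to 5 at day 4, 0 to 0 at day 7, 0 to 2 at day 14, 11 to 16 and 9 to 12 over time in labelled knockout and wild type, and 0 to 2 for the change between genotypes. Where 1 labelled-knockout library remained, it was assumed to vary like the other groups. With a limit of at least 1 read in at least 1 library, 48 members counted as detected, against 27. Scaling by library size alone moved the share of higher calls among all genes called over time in labelled knockout to 58.1%, against 45.1%, and the median of all genes to 0.13. Of the members, 16 were called there in both scalings, 2 higher and 14 lower. Over time the replicate block called 19 members in labelled knockout, against 16, adding Serpinb1a (adjusted p = 0.0359), Serpinb1b (0.0282) and Tmprss11d (0.0189), and 15 in wild type, against 13, adding Tmprss11g (0.0142) and Tmprss11e (0.0497). Without labelled-knockout day 0 replicate 2, Serpinb5 was called over time (log2 -1.22, adjusted p = 0.0405).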
